A study of Mus musculus with 2 samples.

Results

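The genes described here encode the enzymes that build and break down glycogen, the branched glucose polymer in which cells store glucose. They are 9 of the 22838 genes in the deposited table, taken by name: Gys1, Gbe1, Ugp2, Gyg and Ppp1r3c on the synthesis side, and Pygb, Pygl, Pygm and Phka1 on the breakdown side. Messenger RNA was sequenced from NIH3T3 cells, an immortalised mouse fibroblast line. The untreated group was 1 library of cells that received no ALA, and the ALA group was 1 library of cells given ALA at 100 µM over 16 h, with no other agent or genetic change named for either group. ALA is not spelled out in the labels; in heme research the letters usually mean δ-aminolevulinic acid, a precursor of heme. The series title is about the protein SRRD, heme synthesis and circadian rhythms. Nothing in the labels tells the oxygen level, the glucose of the medium or the cell density. Each group is a single library, so the spread between cultures is unknown and nothing was tested.

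Glycogen is made from UDP-glucose. Phosphoglucomutase turns glucose 6-phosphate into glucose 1-phosphate, UDP-glucose pyrophosphorylase (Ugp2) activates it, glycogenin (Gyg) starts a chain on itself, glycogen synthase (Gys1 in most tissues, Gys2 in liver) lengthens it and the branching enzyme (Gbe1) adds branch points. Glycogen phosphorylase, with brain (Pygb), liver (Pygl) and muscle (Pygm) forms, releases glucose 1-phosphate again after activation by phosphorylase kinase, of which Phka1 encodes the muscle-type α subunit, and Ppp1r3c encodes a scaffold that brings protein phosphatase 1 to glycogen and thereby favours synthesis. In cells short of oxygen, hypoxia-inducible factors (HIF) are known to raise transcripts of GYS1, GBE1, UGP2 and PPP1R3C, and PYGL has also been described as raised in hypoxic tumour cells, so a split into synthesis and breakdown genes is not the same as a split by HIF response.

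HIF binds DNA at a hypoxia response element, whose core is ACGTG or GCGTG. To show where such letters lie next to the genes that differed most and least, the 250 bases before the RefSeq gene start on GRCm38.p6 are printed for 4 synthesis genes and for Pygb, 5′ to 3′ on the strand of the gene, with every ACGTG and GCGTG of either strand (read as CACGT and CACGC when on the other strand) in capitals. The windows are chr7:45434589-45434838 on the plus strand for Gys1, chr16:70313699-70313948 on the plus strand for Gbe1, chr11:21371268-21371517 on the minus strand for Ugp2, chr3:20155117-20155366 on the minus strand for Gyg and chr2:150786546-150786795 on the plus strand for Pygb.
Gys1: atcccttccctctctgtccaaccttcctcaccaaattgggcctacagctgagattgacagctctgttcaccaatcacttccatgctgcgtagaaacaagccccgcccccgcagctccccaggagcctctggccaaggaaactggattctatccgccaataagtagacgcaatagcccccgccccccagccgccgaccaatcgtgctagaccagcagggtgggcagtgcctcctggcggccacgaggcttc
Gbe1: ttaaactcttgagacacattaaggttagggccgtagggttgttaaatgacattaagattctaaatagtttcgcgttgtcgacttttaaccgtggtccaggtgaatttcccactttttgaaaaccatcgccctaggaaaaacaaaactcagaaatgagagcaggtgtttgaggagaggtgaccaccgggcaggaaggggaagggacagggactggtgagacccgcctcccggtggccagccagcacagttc
Ugp2: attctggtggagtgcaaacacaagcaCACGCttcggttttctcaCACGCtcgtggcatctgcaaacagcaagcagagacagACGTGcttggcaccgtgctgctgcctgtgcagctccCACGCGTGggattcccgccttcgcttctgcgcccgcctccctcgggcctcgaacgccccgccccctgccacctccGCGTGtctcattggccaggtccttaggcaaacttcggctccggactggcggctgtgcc
Gyg: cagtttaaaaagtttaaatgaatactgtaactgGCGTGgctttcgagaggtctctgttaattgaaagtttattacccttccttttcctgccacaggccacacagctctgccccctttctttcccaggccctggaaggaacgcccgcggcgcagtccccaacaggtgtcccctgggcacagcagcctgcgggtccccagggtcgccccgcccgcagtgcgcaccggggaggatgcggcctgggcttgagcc
Pygb: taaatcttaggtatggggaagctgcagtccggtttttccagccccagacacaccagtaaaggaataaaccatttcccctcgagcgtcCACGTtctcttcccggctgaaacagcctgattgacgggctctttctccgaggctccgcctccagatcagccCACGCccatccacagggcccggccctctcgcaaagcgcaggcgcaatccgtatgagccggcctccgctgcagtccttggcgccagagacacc

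All 9 genes matched a promoter in the RefSeq table. The Gys1 and Gbe1 windows held neither core, as did 61.4% of the 32851 windows of the same length in the table. The Ugp2 window held 6, 1 ACGTG and 5 GCGTG, a number reached by 0.417% of windows, but the window before its other annotated start held 0. In the first of these windows a CACGC and a GCGTG overlap by 2 bases and were counted once each. Gyg held 1 core and Ppp1r3c held 4, of which 2 are the palindrome CACGTG read on both strands. On the breakdown side Pygb, Pygl, Pygm and Phka1 held 2 each, and 16.7% of all windows held 2 or more. RefSeq and GENCODE do not place every start alike. The Pygl window lies wholly, and the Gyg window mostly, inside the gene span that GENCODE gives. Smaller parts of the Pygb, Ppp1r3c and Pygm windows do so too. A match is a description of letters and not a binding site, and no match says only that these letters are not in this window.

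**Figure D1:**
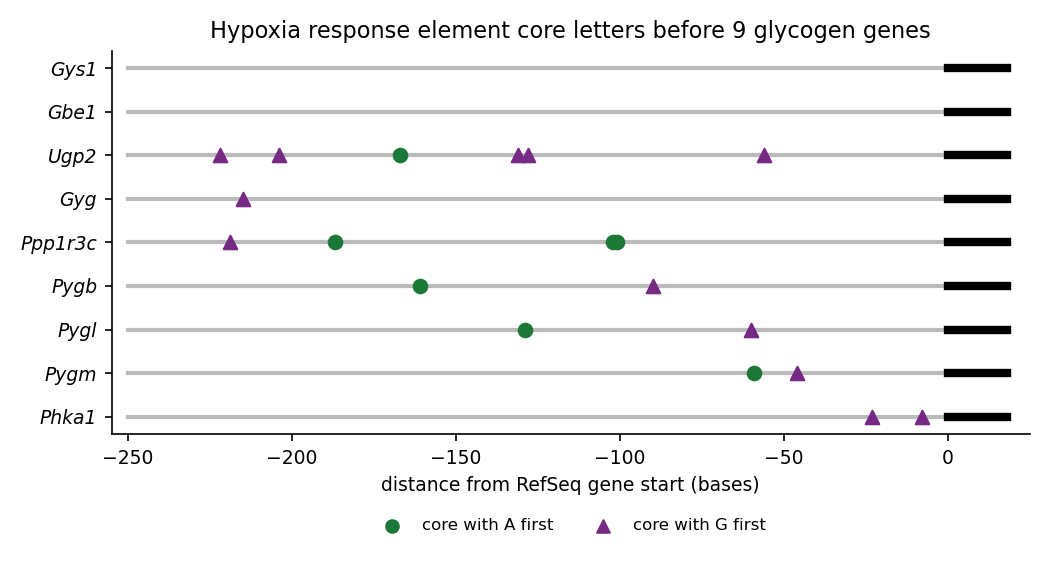
Positions of the letters ACGTG (circles, core with A first) and GCGTG (triangles, core with G first), on either strand, in the 250 bases before the RefSeq start of each of the 9 genes; the horizontal axis is the distance from the start in bases and black bars mark the start of the gene. The first RefSeq start is drawn for Ugp2, which has 6 matches, while Gys1 and Gbe1 have none.

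The deposited unit is FPKM, reads normalised to transcript length and library size, so levels can be compared between genes. Depth was estimated from the steps between very low values at about 21800000 reads for the untreated library, where any depth from 20200000 to 24200000 fitted nearly as well, and 29400000 for the ALA library. Reads per gene and 95% counting intervals below rest on that estimate and cover counting error only. A gene is called measured if its 2 values average 1 FPKM or more, which held for 10929 genes. Their log2 ratio is log2((ALA FPKM + 1)/(untreated FPKM + 1)), a scale on which low genes look less different than they are. Of fibroblast markers 9 of 10 were measured and Lum was listed at 0, with sums of 12880 FPKM untreated and 11257 FPKM with ALA. Of the 9, 8 were lower with ALA and 2 of them at least 1.5-fold, Dcn at 194 and 100.1 FPKM (log2 ratio -0.95) and Thy1 at 60.2 and 38.8 FPKM (-0.62). Of 8 skeletal muscle markers 7 were listed at 0 in both libraries, Acta1 being the exception at 0.267 and 0.765 FPKM, and of 6 liver markers 4 were listed at 0 in both, with sums of 0.138 and 0.205 FPKM. Among brain, blood and epithelial markers the sums were 14.4 and 20.3, 15.8 and 11.7, and 1.23 and 0.958 FPKM. These came mostly from Syn1 (14.4 and 20.3 FPKM), Lyz2 (15.2 and 9.59 FPKM) and Cdh1 (1.23 and 0.944 FPKM), while the blood markers Cd68 (0.237 and 1.40 FPKM) and Ptprc (0.367 and 0.754 FPKM) were low and higher with ALA, and Gfap, Aqp4, Rbfox3, Epcam and Krt18 were listed at 0 in both. The part of these differences in the results below was not tested.

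With ALA, the 4 measured synthesis genes were lower and the 2 measured breakdown genes higher. Gys1 was 1.97-fold lower and Gbe1 1.41-fold lower, Gyg and Ugp2 differed less, and Pygb and Phka1 were 1.34-fold and 1.33-fold higher. Ppp1r3c, Pygl and Pygm did not reach a mean of 1 FPKM, so these statements cover 6 of the 9 genes. In bulk RNA a smaller share of cells with a transcript and less of it per cell cannot be told apart.

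**Figure D2:**
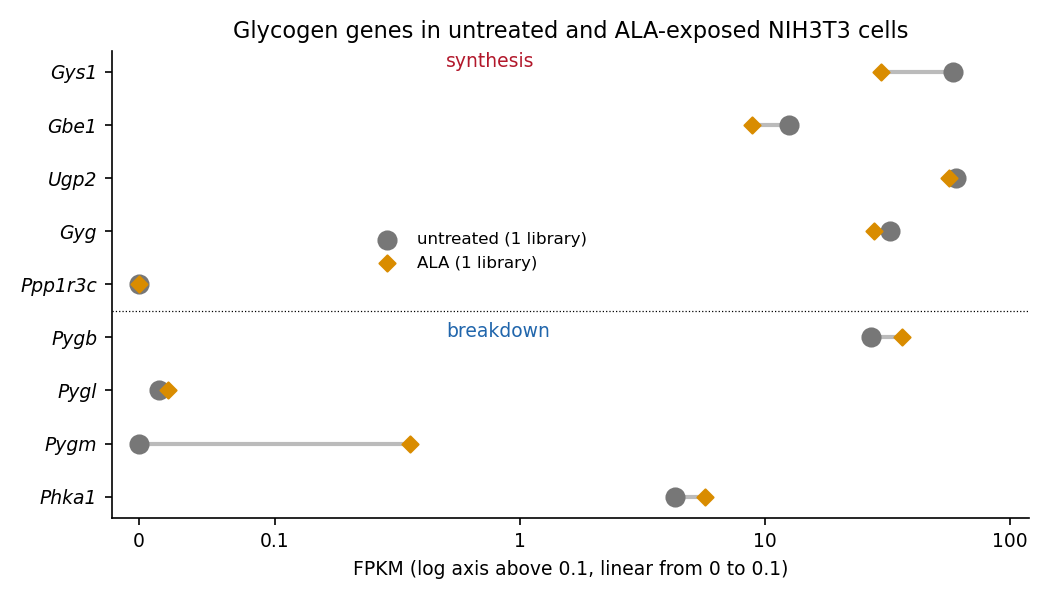
FPKM of the 9 genes in the untreated library (grey circles) and in the ALA library (orange diamonds), on an axis that is logarithmic above 0.1 FPKM and linear below. Gys1 shows the widest gap among the measured genes, from 58.7 to 29.8 FPKM, Ppp1r3c sits at 0 in both libraries, and Pygm at 0 untreated.

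Gys1, the glycogen synthase gene of tissues other than liver, had 58.7 FPKM untreated and 29.8 FPKM with ALA. The ALA value was 50.8% of the untreated one. The log2 ratio was -0.95, and the plain log2 ratio without the added 1 had an approximate 95% counting interval of -1.04 to -0.91. Only 2.34% of measured genes had a lower log2 ratio. About 4703 and 3223 reads lie behind these values, so counting error is small beside the difference, while the spread between cultures is unknown. The gene lies on the plus strand of chromosome 7 at 45434844 to 45456619 in GENCODE vM21, which is on GRCm38, the same assembly as mm10. Of its exon bases 6.5% also lie in Ruvbl2 on the opposite strand, a gene with 49.6 FPKM untreated and 45.3 FPKM with ALA, and no strand setting is given to separate the reads. The liver synthase Gys2 had 0.0157 FPKM untreated, about 1 read, and was listed at 0 with ALA, so Gys1 made up 99.97% of the summed glycogen synthase level untreated.

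Gbe1, whose enzyme sets the branch points of the polymer, had 12.6 FPKM untreated and 8.88 FPKM with ALA. Its log2 ratio was -0.46, with a counting interval of -0.64 to -0.36 for the plain ratio, and 11.3% of measured genes had a lower one. The gene lies on the plus strand of chromosome 16 at 70313949 to 70569716 and shares no exon bases with another gene of the table. Its difference did not reach 1.5-fold.

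Gyg, the glycogenin gene, had 32.4 FPKM untreated and 27.98 FPKM with ALA. Its log2 ratio was -0.21, and counting error alone would allow a plain ratio from -0.32 to -0.11. It lies on the minus strand of chromosome 3 at 20122084 to 20155317. Ugp2, the gene of the UDP-glucose step on the minus strand of chromosome 11 at 21321138 to 21371201, had 60.2 and 56.4 FPKM. Its log2 ratio was -0.09, with a counting interval from -0.16 to -0.03 for the plain ratio. Its ratio moved to -0.02 when the libraries were scaled to equal totals. Among measured genes 27.97% had a lower ratio than Gyg and 40.4% a lower ratio than Ugp2, so neither stood far from the middle.

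Ppp1r3c, the scaffold that favours synthase activity, was listed at 0 FPKM in both libraries. Of the 7 glycogen-targeting subunit genes of protein phosphatase 1 that were looked up, Ppp1r3a to Ppp1r3g, 0 were measured and 3 (Ppp1r3a, Ppp1r3c and Ppp1r3g) were listed at 0 in both libraries. The highest was Ppp1r3e at 0.581 FPKM untreated and 0.870 FPKM with ALA, about 25 and 50 reads. Thus one of the genes known to respond to HIF gave no value that could be compared here.

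Among the breakdown genes, Pygb carried the phosphorylase transcript of these cells. Its level was 27.1 FPKM untreated and 36.3 FPKM with ALA. The log2 ratio was 0.40, the counting interval of the plain ratio ran from 0.34 to 0.49, and 88.4% of measured genes had a lower ratio. It made up 99.9% of the summed level of the 3 phosphorylase genes untreated and 99.0% with ALA. The gene lies on the plus strand of chromosome 2 at 150786735 to 150831758 and shares no exon bases with another gene of the table. Of its 41-base stretches, the read length, 0.6% also occur in another gene, Pygm being the one with the most matches.

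Pygl, the liver form, had 0.0151 and 0.0217 FPKM, about 1 and 2 reads, and nothing can be said of a difference at this depth. Pygm, the muscle form, was listed at 0 untreated and at 0.355 FPKM with ALA, about 30 reads. In all, 151 genes were listed at 0 untreated and at or above that level with ALA, and 99 genes were listed at 0 with ALA and at or above it untreated, so such a pair of values was not rare in either direction, and no fold is given. The skeletal muscle markers Ckm, Myh1, Myh2, Myh4, Mb, Tnnt3 and Myog were listed at 0 in both libraries. Pygm lies on the plus strand of chromosome 19 at 6384399 to 6398459 and Pygl on the minus strand of chromosome 12 at 70190811 to 70231488.

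Phka1, the α subunit gene of phosphorylase kinase on the minus strand of chromosome X at 102513975 to 102644246, had 4.29 FPKM untreated and 5.69 FPKM with ALA. Its log2 ratio was 0.34, with a counting interval of 0.26 to 0.56 for the plain ratio, and 85.1% of measured genes had a lower one. Its paralogue Phka2, known as the liver-type α subunit, had 11.1 and 10.6 FPKM, a log2 ratio of -0.06. Phka1 therefore made up 27.9% of the summed α subunit level untreated and 34.9% with ALA, while the sum was 15.3 and 16.3 FPKM.

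Of the 6 measured genes, 1 (Gys1) was at least 1.5-fold lower and 0 were at least 1.5-fold higher. Among all measured genes 7.16% were at least 1.5-fold lower and 5.9% at least 1.5-fold higher, and with libraries scaled to equal totals these shares were 5.76% and 7.77%. At 2-fold, 0 of the 6 were called in either direction, against 2.01% lower and 1.49% higher among all measured genes. By sign alone 4 were lower and 2 higher, where 52.2% of all measured genes were lower and 47.8% higher. The median log2 ratio was -0.33 over the 4 synthesis genes and 0.37 over the 2 breakdown genes, beside -0.02 over all measured genes. The other 5 genes differed by less than 1.5-fold, as did 9502 of the 10929 measured genes.

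**Figure D3:**
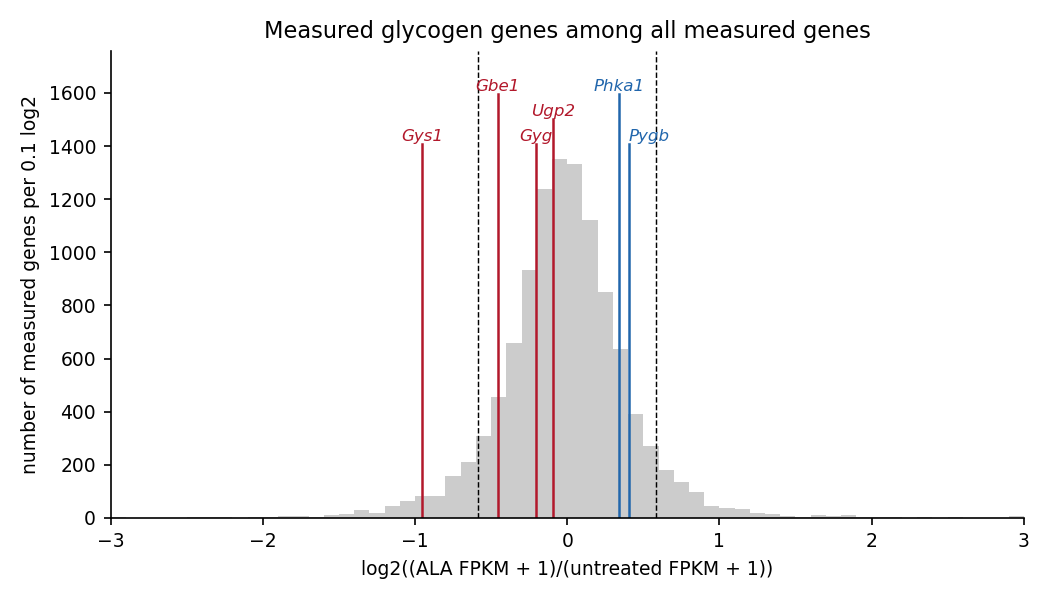
Histogram of the log2 ratios of the 10929 measured genes in steps of 0.1 (grey, with ratios beyond -3 and 3 counted in the outermost bars), with the measured synthesis genes (red) and breakdown genes (blue) marked by vertical lines whose height has no meaning. Dashed lines mark 1.5-fold; Gys1 at -0.95 lies beyond the lower one and the other 5 lie between the lines.

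A ratio of 2 genes within a library does not depend on how the libraries were scaled to each other. Gys1 stood at 2.16 times the Pygb level untreated and at 0.822 times with ALA, so the order of the synthase and the phosphorylase gene was opposite in the 2 libraries. The log2 change of that ratio was -1.39, and counting error allows about -1.49 to -1.30. Gyg was likewise above Pygb untreated (1.19 times) and below it with ALA (0.772 times). The Gbe1 to Pygb ratio was 0.463 and 0.245, and the Ugp2 to Pygb ratio was 2.22 and 1.55. Relative to Phka1, Gys1 stood at 13.7 and 5.24 times, and Gbe1 at 2.93 and 1.56 times. All 8 ratios of a measured synthesis gene to a measured breakdown gene were lower with ALA, by log2 changes from -1.39 to -0.50. The 8 ratios share 6 genes and 2 libraries, so they are not independent of each other.

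**Figure D4:**
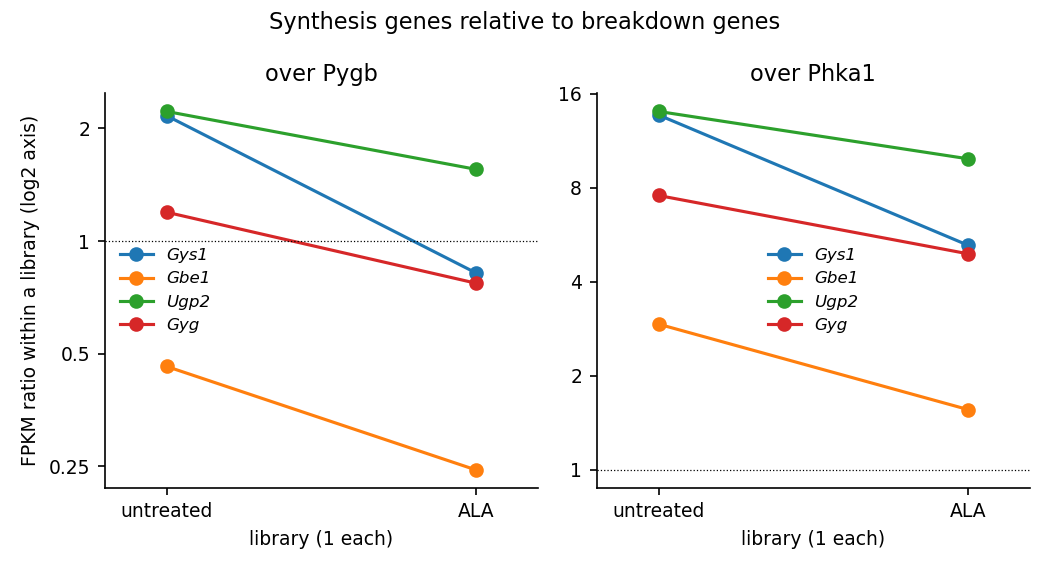
FPKM of each measured synthesis gene divided by that of Pygb (left) or Phka1 (right) within the untreated and the ALA library, on a log2 axis, with 1 library at each end of a line. Every line descends, and Gys1 over Pygb passes from 2.16 to 0.822, across the dotted line at equal levels.

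Ordered by level, the untreated library ran from Ugp2 (60.2 FPKM) and Gys1 (58.7), whose counting intervals overlap, through Gyg (32.4), Pygb (27.1), Gbe1 (12.6) and Phka1 (4.29) to Pygl. In the ALA library Ugp2 came first at 56.4 FPKM and Pygb second at 36.3. Gys1 followed at 29.8 FPKM and Gyg at 27.98 FPKM, with overlapping counting intervals of 28.8 to 30.9 and 26.6 to 29.4. Gbe1, Phka1 and Pygm came after them at 8.88, 5.69 and 0.355 FPKM.

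The wider pathway was read from a list of 58 genes in 7 groups, which includes the 9, and 41 of the 58 were measured. At least 1.5-fold lower were 3 (Gys1, Pgm2 and Prkab2) and at least 1.5-fold higher was 1 (Prkag2), beside 7.16% and 5.9% of all measured genes, so the count of lower genes was near the background. Without the 9 genes, 35 were measured, of which 25 were lower and 10 higher by any amount, where 52.2% and 47.8% of all measured genes were, with a median log2 ratio of -0.09 beside -0.02 over all. With libraries scaled to equal totals 18 were lower and 17 higher, since 7 genes near 0 (Phka2, Phkb, Stbd1, Prkaca, Akt1, Akt2 and Ugdh) changed sign. Prkab2 stayed just under 1.5-fold with equal totals and when the median ratio was set to 0.

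Of the other genes that act before the polymer, Pgm2 differed by nearly as much as Gys1. Its row lies on chromosome 4 at 99929414 to 99987294, where GENCODE places the phosphoglucomutase gene it calls Pgm1, so the names Pgm1 and Pgm2 are exchanged between the table and newer annotation. This gene had 83.9 FPKM untreated and 45.2 FPKM with ALA. Its log2 ratio was -0.88, and 2.91% of measured genes were lower. It shares 13.6% of its exon bases with Itgb3bp on the opposite strand, which had 7.75 and 5.83 FPKM. The row named Pgm1, on chromosome 5 at 64092950 to 64128351 and called Pgm2 in GENCODE, went the other way with 12.4 and 17.4 FPKM (log2 ratio 0.45). Pgm2l1, whose enzyme makes glucose 1,6-bisphosphate, the cofactor of phosphoglucomutase, had 6.73 and 5.07 FPKM, a log2 ratio of -0.35.

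Breakdown genes outside the 9 did not share the direction of Pygb and Phka1. Phkb, the β subunit of phosphorylase kinase, had 20.04 and 19.4 FPKM (-0.05), and the catalytic subunit gene Phkg2 had 5.97 and 4.62 FPKM (-0.31), with 35.8% of its 41-base stretches also in other genes. Of 6 measured breakdown genes 2 were thus higher and 4 lower, with a median log2 ratio of -0.05, and 0 reached 1.5-fold in either direction. With libraries scaled to equal totals Phkb and Phka2 changed sign, and 4 of the 6 were higher. Relative to Phkb, chosen after the values were seen, Gys1 stood at 2.93 times untreated and 1.54 times with ALA, and Gbe1 at 0.626 and 0.458 times. The Ugp2 ratio to Phkb was 3.005 and 2.91, a log2 change of -0.05 with a counting interval of -0.15 to 0.05. The size of these ratio changes thus depended on which breakdown gene was used.

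The enzymes that switch synthase and phosphorylase had small differences with 2 exceptions. The catalytic subunits of protein phosphatase 1, which removes phosphate from both enzymes, had log2 ratios of 0.07 for Ppp1ca (252 and 264 FPKM), -0.19 for Ppp1cb and -0.10 for Ppp1cc, of whose 41-base stretches 59.7% also occur in other genes. The synthase kinases Gsk3a and Gsk3b were at 0.12 and -0.12, and Akt1, which acts on them, at -0.02. Of 7 subunit genes of AMPK, the energy-sensing kinase with glycogen-binding β subunits, 5 were measured and 4 of these were lower. The β subunit gene Prkab2 had 6.95 and 4.27 FPKM (-0.59) and Prkab1 15.97 and 12.2 FPKM (-0.36), whereas the γ subunit gene Prkag2 had 1.85 and 4.24 FPKM (0.88, about 134 and 415 reads). Prkaa1, the main α subunit gene here, had 60.7 and 50.9 FPKM (-0.25), and Prkag1, the main γ subunit gene, 68.9 and 55.6 FPKM (-0.30), with 35.2% of its 41-base stretches also in other genes. Of protein kinase A, which acts on phosphorylase kinase, the regulatory subunit Prkar1a had 171 and 188 FPKM (0.14), Prkar2b 23.3 and 29.8 FPKM (0.35) and the catalytic subunit Prkaca 54.6 and 52.8 FPKM (-0.05). Calmodulin, the δ subunit of phosphorylase kinase, is encoded by several genes, of which Calm2 was at 0.15 and Calm3 at 0.18.

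Lysosomal glycogen breakdown and UDP-glucose use completed the list. Gaa, the lysosomal α-glucosidase, had 52.05 and 45.7 FPKM (-0.18), and the glycogen-binding protein gene Stbd1 11.6 and 11.3 FPKM (-0.03). Epm2a, the laforin gene, stayed below 1 FPKM at 0.846 and 0.584, and Nhlrc1, the malin gene, was listed at 0 in both libraries. Of 6 measured genes that make or use UDP-glucose 5 were lower and 1 higher (4 and 2 with equal totals, where Ugdh changed sign), and 0 reached 1.5-fold on the scale with the added 1. The largest difference was that of Galt, named after its value was seen, which makes UDP-galactose from UDP-glucose. Galt had 6.14 and 3.89 FPKM, a log2 ratio of -0.55 and a plain ratio of 1.58-fold lower, a value that is uncertain because part of its exon sequence is not unique to it. Ugdh, which turns UDP-glucose into UDP-glucuronate, had 253 and 249 FPKM (-0.02), Ugcg, the glucosylceramide synthase gene, 66.95 and 48.6 FPKM (-0.46), and Galk1, the galactokinase gene, 69.9 and 61.8 FPKM (-0.18).

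**Figure D5:**
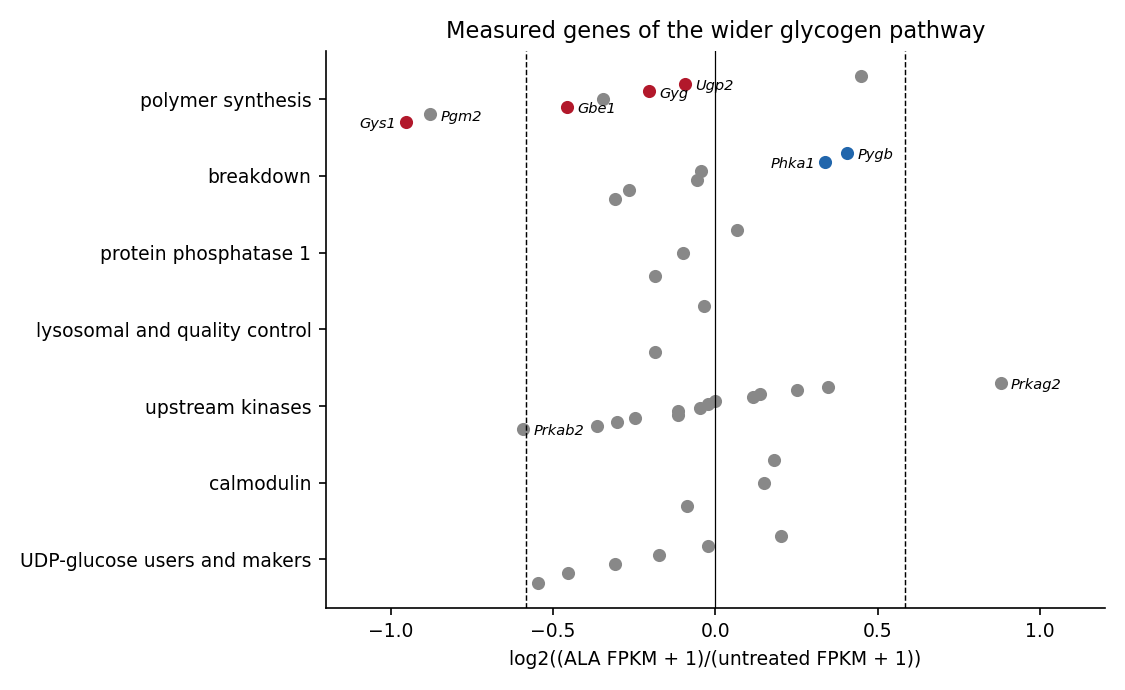
Log2 ratios of the 41 measured genes of the wider list, by group, with synthesis genes among the 9 in red, breakdown genes among the 9 in blue and others in grey; points are shifted vertically for legibility and dashed lines mark 1.5-fold. Gys1, Pgm2 and Prkab2 lie beyond the lower line and Prkag2 beyond the upper one.

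As a reference for HIF targets outside glycogen metabolism, 10 genes were read (Slc2a1, Hk2, Pgk1, Ldha, Pdk1, Bnip3, Egln3, Ankrd37, Car9 and Vegfa), of which 9 were measured and 8 were at least 1.5-fold lower with ALA, against 7.16% of all measured genes (7 with equal totals, against 5.76%). This list was chosen with earlier results of these data known, so the count is a description only. The median log2 ratio of the 9 measured reference genes was -1.06, with a range from -1.59 to -0.39. Gys1 at -0.95 lay within that range, between Slc2a1 at -1.04 and Pgk1 at -0.87. Gbe1 at -0.46 lay between Ldha at -0.59 and Vegfa at -0.39. Ugp2 and Gyg lay outside the range, nearer 0. Among the reference genes, 68.1% of the 41-base stretches of Pgk1 and of Bnip3 and 24.3% of those of Ldha also occur in other genes. Of the exon bases of Ankrd37, 26.4% also lie in other genes, so the ratios of these reference genes are less certain. Among the 3 measured glycogen genes named above as known to respond to HIF (Gys1, Gbe1 and Ugp2), the ratios ran from -0.95 for Gys1 to -0.09 for Ugp2.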

How the data were processed

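The authors deposited 1 table of FPKM values per gene, with 1 column for each of the 2 libraries, in the layout of a Cufflinks tracking file per the file headers. Libraries were read as single-end reads of 41 bp per the labels' protocols. The submitters' processing notes name FastQC 0.11.5, TopHat2 2.1.1, Cufflinks 2.2.1 and mm10; the annotation, options, strand setting and any scaling of 1 library to the other are not stated there. The deposited FPKM interval bounds carry no error, since lower and upper bounds were equal in 100.0% of rows. All 9 genes had status OK in both libraries.

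Since FPKM is a normalised unit, count models were not applied. Log2 ratios used a pseudocount of 1 FPKM and a filter at a mean of 1 FPKM. FPKM summed to 540963 untreated and 512324 with ALA. Relative depth came from 461 genes between 0.001 and 0.1 FPKM in both libraries: 23.0% of their ratios came within 0.03 log2 of the quotient of small integers at a depth ratio of 1.35, against a median of 12.1% at other ratios. The step itself was fitted on genes with 1 transcript longer than 1500 bp. Reads are FPKM times the longest coding transcript times depth, and intervals of ratios are exact binomial (Clopper-Pearson), those of levels exact Poisson, those of ratios between genes normal approximations. Gene models were matched by position for 99.0% of genes. The procedure was tested on simulated counts that carried counting error only, so that test says nothing of the spread between cultures. Python 3.11.15 and scipy 1.17.1 were used.

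The 9 genes and all lists were chosen with earlier results of these data known. Named were the 9 genes and, from each group of the wider list, measured genes at least 1.5-fold apart and up to 3 with the highest mean FPKM. Other genes were named after their values were seen. Some genes of the wider list count in its totals and are not reported here by name. Protein sequences were not used here.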

Additional observations from a re-analysis of the deposited data

How the results depend on the processing

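With 1 library per group no library could be left out, and no paired analysis was possible because each group has 1 library. Over 6 alternatives, the 35 values of single measured genes among the 9 kept their sign, and 4 moved by more than the half-width of their counting interval: Gys1 was at -0.87 with a pseudocount of 5 and -0.88 with equal library totals, and Ugp2 and Pygb were at -0.02 and 0.48 with equal totals. Gys1 was the 1 gene of the 9 at least 1.5-fold lower, and 0 were higher, under every alternative. The synthesis median was -0.26 with a pseudocount of 5, -0.26 with equal totals and -0.21 with no filter, which adds Ppp1r3c at 0. The breakdown median was 0.28 with a pseudocount of 5 and 0.44 with equal totals. The difference of the medians was -0.54 with a pseudocount of 5 and -0.58 with no filter. In the wider list, the count of genes at least 1.5-fold higher was 0 with a pseudocount of 5 and 0 with the filter raised to 5 FPKM, which removes Prkag2. The count at least 1.5-fold lower, 3 as reported, was 4 with a pseudocount of 0.1, which adds Galt, and 2 with a pseudocount of 5, with equal totals and with the median ratio set to 0. Among all genes, the counts at least 1.5-fold lower and higher were 299 and 194 with a pseudocount of 5, against 782 and 645. A value under about 3 reads, 0.05 FPKM for Pygl untreated, cannot show a difference.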
